A study of Homo sapiens with 6 samples.

Results

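Interferon-stimulated effector genes are the genes that cells switch on to block viruses once interferon has been sensed. The 50 members described here were chosen by gene symbol from a list of such genes, with earlier results of these data known. Their shares beside those of all genes are therefore a description. All 50 were found among the 19077 genes of the table, each on a single row. RNA sequencing covered 6 libraries of SW1990, a long-established cell line from a human pancreatic cancer. The labels describe 1 library of the parental line in ordinary medium (DMEM/F-12 with fetal bovine serum) and 1 of a gemcitabine-resistant derivative whose medium also held 100 nM gemcitabine, a nucleoside analogue given to patients with this cancer. The other 4 were sorted by flow cytometry from parental cells in ordinary medium. In 2 of them the cells carried TRA-1-81, a sugar epitope found on pluripotent stem cells, and in 2 they did not, and these are called positive and negative here. Each sorted library carries the number 0603 or 0610 in its title, and the labels do not say what these numbers mark, whether the libraries came from separate cultures, or whether the derivative is 1 clone. P-values therefore reflect just the spread among the libraries sequenced, which may be technical.

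Interferons bind receptors at the cell surface and activate JAK kinases. A complex that contains STAT2 and IRF9 then binds the interferon-stimulated response element (ISRE) in the promoters of target genes. The proteins made recognise foreign RNA, degrade it, stop translation or trap virus particles, and many are also expressed at a raised level in tumour cells with no virus present. The values are the authors' deposited FPKM, in which the fragments of a gene are scaled to its length and to the mapped fragments of the library. Because FPKM is per length, levels of different genes can be set side by side. In bulk RNA, a smaller share of expressing cells and less RNA per cell cannot be told apart.

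Each library had 11164 to 11729 genes at an FPKM of 1 or more. The epithelial and ductal markers KRT7, KRT8, KRT18, KRT19, EPCAM, CDH1 and MUC1 were all at an FPKM of at least 1 in every library, summing to 4501 to 6049.7. The leukocyte marker PTPRC was at most 0.0205 in any library and the fibroblast marker DCN at most 0.0194. The 5 markers of plasmacytoid dendritic cells, which secrete interferon, summed to 0.237 to 0.438. The 7 fibroblast markers summed to 2.86 in parental, 20.4 in resistant and 4.36 to 5.39 in sorted cells. Nearly all of the resistant sum came from COL1A1 (14.1) and LUM (6.04). The 8 leukocyte markers summed to 19.4, 54.7 and 22.7 to 29.3 in the same order, most of it CD68, a lysosomal protein (15.6 in parental and 51.9 in resistant cells). The 5 endothelial markers summed to 3.03, 1.11 and 2.21 to 4.87. The part of these marker differences in the members' differences was not tested.

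All 50 members were higher in the resistant than in the unsorted parental library, and 47 of them at least 2-fold. Of all 12066 genes measured in this pair, 13.5% passed that mark upwards and 6.9% downwards. The sorted parental fractions stood between, with 44 members having all 4 sorted libraries above the parental and below the resistant value, a pattern shown by 18.7% of 11823 genes. In positive cells, 39 members had both libraries above both negative ones, against 18.6% of 11533 genes. The single resistant and the single parental library allow no test of their difference. Gemcitabine in the medium, resistance, culture and library preparation cannot be told apart in it. Against the mean of the 4 sorted libraries of the parental line, the resistant library was at least 2-fold higher for 22 members, against 8.18% of 12157 genes.

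**Figure D1:**
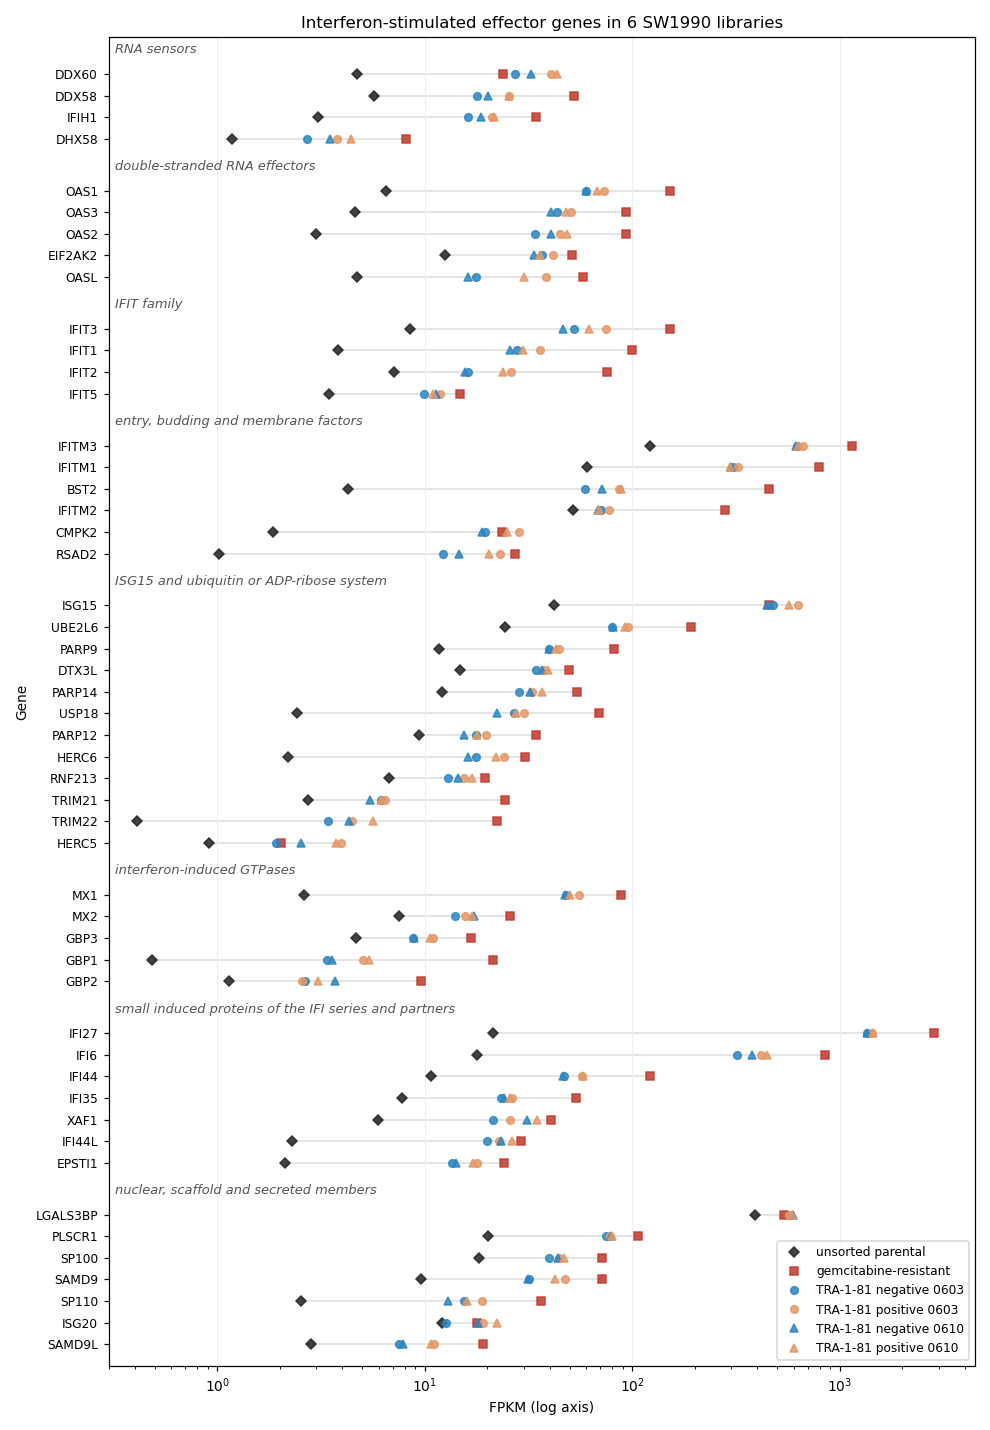
FPKM (log axis) of the 50 members in the 6 libraries, grouped by role and ordered by mean within a role, with 1 point per library and no error bars. The parental point lies lowest for every member, and the resistant point lies highest for 44 of them.

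The members together made up 0.185% of the summed FPKM of the parental library, 1.83% of the resistant library, and 0.983% to 1.15% of the sorted libraries. IFI27 was the largest single contributor in every library but the parental one, and without it the shares were 0.181%, 1.29% and 0.707% to 0.850%. The median member stood at an FPKM of 5.80 in parental, 52.8 in resistant and 24.8 to 31.6 in sorted cells. Among the genes at an FPKM of at least 1, these medians lay at percentile 28.2 in parental, 85.3 in resistant and 70.3 to 75.9 in sorted cells. In parental cells the members were thus mostly below the typical expressed gene, whose median was 12.1. LGALS3BP was the most abundant member in the parental library, and IFI27 in each of the other 5.

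The promoters of the members were compared with those of other genes, because the ISRE is the sequence through which interferon is known to act on such genes. RefSeq promoter windows (GRCh38.p14, 250 bases before to 50 after each listed gene start) were found for 41 of the 50 members. DHX58, GBP2, IFIT2, IFITM2, MX2, OAS2, OASL, TRIM22 and USP18 had no entry. The ISRE core was searched on both strands as GAAA, any 2 bases and GAAA, and it occurred in 30 of the 41 matched members (73.2%) and in 4.37% of all 27167 genes. Counted by window, 35 of 55 member windows held it (63.6%), against 3.57% of 34943. The gamma-activated site TTCNNNGAA, identical on both strands, occurred in 12 matched members (29.3%) and in 9.37% of the same 27167 genes. In 6 of the 11 member windows holding both motifs, a match of one overlapped a match of the other. The 50 genes were listed because they are known interferon targets, so these shares describe the list and were not tested.

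The sequences below are promoters of the 5 members with the largest resistant minus parental difference in log2(FPKM + 1) among those holding the core, and of the member with the smallest, LGALS3BP. For each gene 1 window is printed, the one with the most matches or the first listed where numbers are equal. Each is printed in the direction of its gene, with the matches to the core in capitals.
IFI27: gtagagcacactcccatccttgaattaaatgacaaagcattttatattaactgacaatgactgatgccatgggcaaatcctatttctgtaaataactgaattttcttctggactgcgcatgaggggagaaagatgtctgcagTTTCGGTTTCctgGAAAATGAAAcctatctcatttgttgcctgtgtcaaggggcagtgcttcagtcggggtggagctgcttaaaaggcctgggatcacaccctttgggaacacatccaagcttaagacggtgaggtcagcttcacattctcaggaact
BST2: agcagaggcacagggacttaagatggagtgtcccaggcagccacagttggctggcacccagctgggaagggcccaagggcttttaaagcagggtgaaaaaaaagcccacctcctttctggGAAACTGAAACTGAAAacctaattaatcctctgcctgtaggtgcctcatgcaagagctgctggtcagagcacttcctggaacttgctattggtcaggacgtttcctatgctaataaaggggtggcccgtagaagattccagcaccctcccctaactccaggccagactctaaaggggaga
IFI6: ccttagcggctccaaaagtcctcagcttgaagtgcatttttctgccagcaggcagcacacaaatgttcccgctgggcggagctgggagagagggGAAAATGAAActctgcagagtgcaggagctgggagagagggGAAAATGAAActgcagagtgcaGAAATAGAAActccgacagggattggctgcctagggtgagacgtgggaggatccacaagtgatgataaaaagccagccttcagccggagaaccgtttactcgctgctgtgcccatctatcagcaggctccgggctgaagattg
MX1: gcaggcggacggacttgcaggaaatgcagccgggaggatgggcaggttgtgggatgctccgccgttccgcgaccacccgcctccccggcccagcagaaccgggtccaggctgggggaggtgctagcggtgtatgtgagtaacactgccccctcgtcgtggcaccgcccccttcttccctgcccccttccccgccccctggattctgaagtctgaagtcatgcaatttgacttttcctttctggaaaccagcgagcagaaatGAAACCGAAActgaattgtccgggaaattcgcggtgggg
IFIT1: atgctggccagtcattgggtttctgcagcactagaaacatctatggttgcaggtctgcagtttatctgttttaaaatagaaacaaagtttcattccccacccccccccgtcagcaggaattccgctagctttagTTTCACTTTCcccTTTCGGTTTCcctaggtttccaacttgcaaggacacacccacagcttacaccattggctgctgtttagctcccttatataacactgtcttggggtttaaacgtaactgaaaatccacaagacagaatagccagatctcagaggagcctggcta
LGALS3BP: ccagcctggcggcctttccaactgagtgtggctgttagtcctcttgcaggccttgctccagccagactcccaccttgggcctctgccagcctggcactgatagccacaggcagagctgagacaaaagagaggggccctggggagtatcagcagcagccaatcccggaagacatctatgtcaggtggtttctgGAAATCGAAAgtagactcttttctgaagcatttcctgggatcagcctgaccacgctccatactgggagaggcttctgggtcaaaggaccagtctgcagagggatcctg
In GRCh38.p14 they lie at chr14:94110486-94110785 (plus strand), chr19:17405581-17405880 (minus), chr1:27672143-27672442 (minus), chr21:41420308-41420607 (plus), chr10:89392373-89392672 (plus) and chr17:78979874-78980173 (minus). In BST2 the matches overlap, so that the capitals form 1 run, whose first base is at -130 relative to the gene start. The windows printed hold 3 matches for IFI6, 2 each for IFI27 and IFIT1, and 1 for MX1, starting at base 12 of the transcript. MX1 had 3 windows, 2 of them with the core, and the match in the one not printed began at -196 from its own start. LGALS3BP also carries the core, with its first base at -58, and its difference between resistant and parental cells was the smallest of all members.

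**Figure D2:**
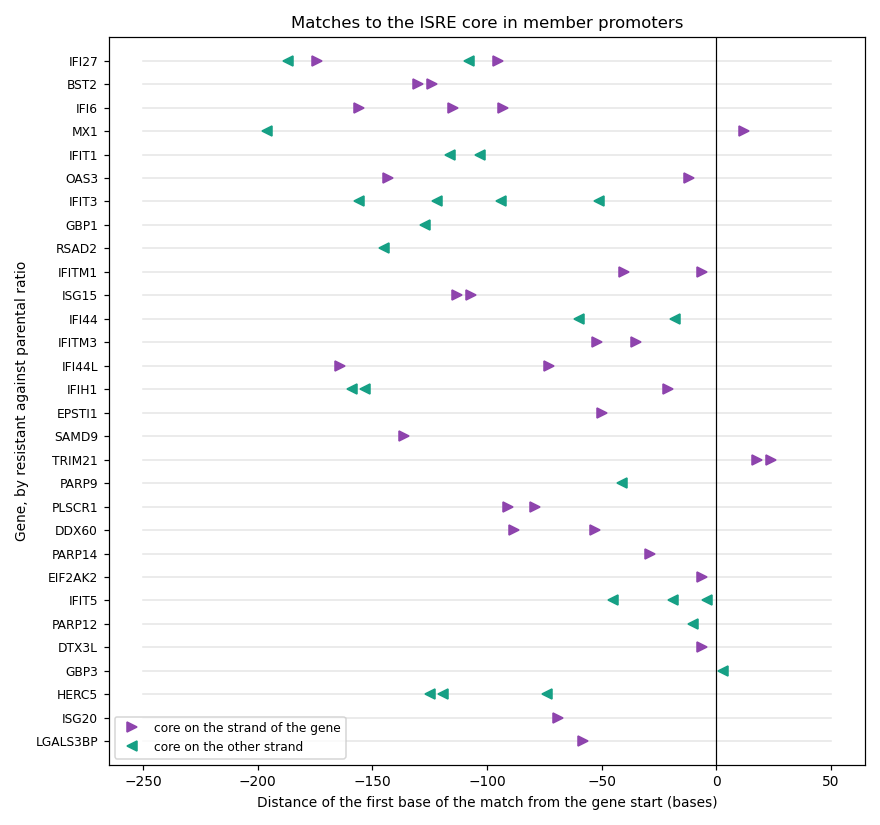
Positions of matches to the ISRE core in the promoter windows of the 30 members that hold it, as the distance in bases from the gene start (negative values are upstream), with genes in the order of their resistant minus parental difference in log2(FPKM + 1). Matches lie between -196 and 24, and 44 of the 56 begin within 150 bases before the start.

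Over all windows there were 56 matches in 30 members, with a median first base of -83.5, and 44 began within 150 bases before the start. Windows of alternative starts can overlap, so 1 site may be counted under more than 1 start. Members with the core had a median resistant minus parental difference in log2(FPKM + 1) of 3.07 (range 0.46 to 6.998, n = 30), and the 11 matched members without it had 2.92 (range 1.42 to 4.36). The medians for positive against negative cells were 0.24 and 0.23. The range of the members without these letters in the window lay inside that of the members with them. DDX58, OAS1, IFI35, XAF1, HERC6 and UBE2L6 were among the members without it.

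All log2 values below are differences of log2(FPKM + 1), a scale that understates changes of low genes. The median member differed by 2.998 between resistant and parental cells, against 0.09 for all genes. Between the mean of the sorted libraries and the parental library, the median member differed by 1.92 and the median gene by 0.04. Between the resistant library and the mean of the sorted libraries, these values were 0.94 and 0.05. The comparisons share libraries and are not independent of one another. Values in the sorted libraries are given in the order negative 0603, positive 0603, negative 0610 and positive 0610.

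**Figure D3:**
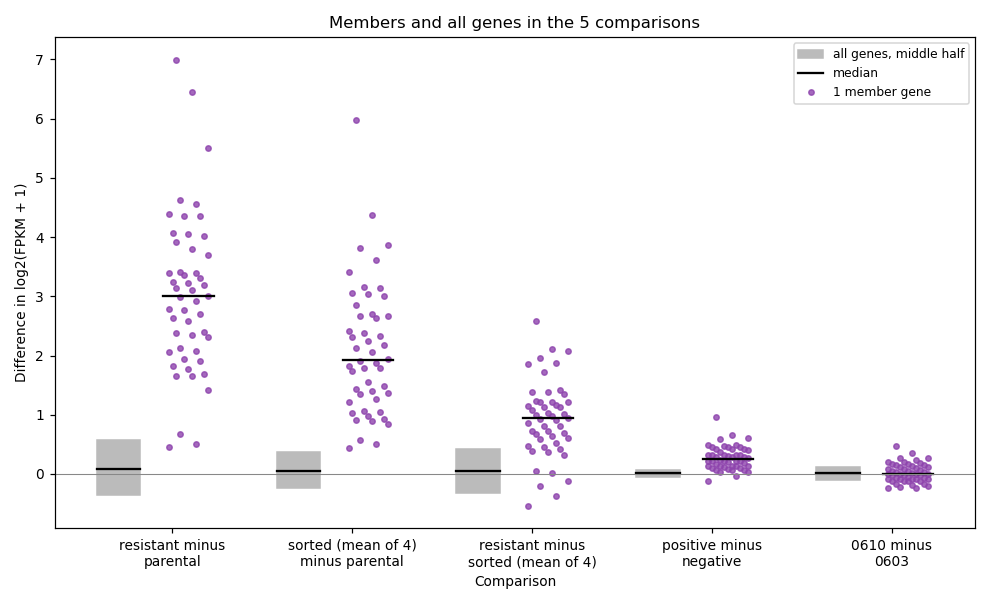
Differences in log2(FPKM + 1) of the 50 members (points, sideways shift without meaning) in the 5 comparisons, beside the interquartile range of all genes (grey box) and the medians (black lines). The member medians are 2.998, 1.92, 0.94, 0.25 and 0.00 from left to right, against 0.09, 0.04, 0.05, 0.01 and 0.01 for all genes.

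The RNA sensors recognise foreign RNA in the cytosol and start interferon production, or act with the sensors that do. The resistant library exceeded the parental one more than 2-fold for all 4, with a median log2 difference of 2.56. DDX58 encodes RIG-I, which binds short RNA with free triphosphate ends, and was measured at an FPKM of 5.68 in the parental, 52.3 in the resistant and 17.9, 25.4, 20.2 and 25.5 in the sorted libraries. Its sorted values lay well above the parental and well below the resistant value, and both positive libraries were above both negative ones. DHX58 (LGP2, which tunes the other sensors) was the least abundant sensor, at 1.17 in the parental, 8.11 in the resistant and 2.70, 3.78, 3.51 and 4.40 in the sorted libraries. IFIH1, which encodes MDA5 and senses long RNA duplexes, stood at 3.04 in parental, 34.5 in resistant and 16.2 to 21.6 in sorted cells. DDX60, a helicase described as a partner of RIG-I, went another way, at 4.72 in the parental, 23.9 in the resistant and 27.1, 40.5, 32.4 and 43.3 in the sorted libraries. It was higher in resistant than in parental cells but lower than in each of the 4 sorted libraries (log2 difference from their mean -0.54), a place shared with only LGALS3BP among the members and with 38.8% of all 12157 genes in that comparison.

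The next role holds the enzymes that act once double-stranded RNA is bound. OAS1, OAS2 and OAS3 make the oligoadenylates that activate RNase L, and they are neighbours on chromosome 12. OAS1 (hg19, chromosome 12, 113344739 to 113357712) stood at 6.48 in the parental, 153 in the resistant and 60.04, 73.5, 59.6 and 67.7 in the sorted libraries. OAS3 stood at 4.60 in the parental, 93.3 in the resistant and 43.5, 50.98, 40.8 and 47.95 in the sorted libraries. OAS2 stood at 3.01 in the parental, 93.3 in the resistant and 34.1, 44.8, 40.7 and 48.4 in the sorted libraries. The groups did not overlap for any of them, and their log2 differences between resistant and parental cells were alike, at 4.36, 4.08 and 4.56. OASL, a relative without that enzyme activity which binds RIG-I, stood at 4.70 in the parental, 57.7 in the resistant and 17.6, 38.6, 16.2 and 29.98 in the sorted libraries. Both of its positive libraries lay well above both negative ones. EIF2AK2 (PKR, the kinase that stops translation through eIF2) stood at 12.6 in the parental, 51.4 in the resistant and 36.9, 41.6, 33.5 and 35.9 in the sorted libraries, and its positive and negative libraries overlapped. It had the smallest log2 difference of this role between resistant and parental cells, 1.95.

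IFIT proteins bind viral RNA or translation factors, and the 4 members lie side by side on chromosome 10. IFIT3, a scaffold for the others, stood at 8.46 in the parental, 152 in the resistant and 52.3, 74.5, 46.5 and 61.9 in the sorted libraries. IFIT1, which binds RNA caps lacking methylation, stood at 3.81 in the parental, 100.1 in the resistant and 27.8, 35.8, 25.7 and 29.7 in the sorted libraries. IFIT2 stood at 7.09 in the parental, 75.3 in the resistant and 16.1, 25.9, 15.6 and 23.7 in the sorted libraries. All 3 were more than 10-fold higher in resistant than in parental cells by FPKM (17.9-fold, 26.3-fold and 10.6-fold). The sorted values of IFIT2 were nearer to the parental value than those of IFIT3 and IFIT1, with a log2 difference of the sorted mean from the parental library of 1.37, against 2.64 and 2.67, and close to that of IFIT5 at 1.44. IFIT5 was the lowest of the family in resistant cells, at 14.7, with 3.44 in parental and 9.90 to 11.9 in sorted cells.

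Membrane factors block virus entry or release. IFITM3, which acts in endosomes, stood at 121 in the parental, 1147 in the resistant and 625, 666, 614 and 629.5 in the sorted libraries. IFITM1, which acts at the cell surface, stood at 60.6 in the parental, 799 in the resistant and 305, 324, 300.2 and 298 in the sorted libraries. Both were already among the more abundant members in the parental library and showed almost no gap between positive and negative cells. IFITM2 stood at 52.1 in the parental, 279 in the resistant and 70.4, 77.03, 68.7 and 69.3 in the sorted libraries, so its sorted values lay close to the parental one (log2 difference 0.45, the smallest of all members). The IFITM genes are alike in sequence: of all runs of 50 bases in their GENCODE release 29 transcripts, 32.9% of those of IFITM1, 34.96% of IFITM2 and 15.98% of IFITM3 also occur in transcripts of another gene, so their separate values are uncertain.

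BST2 (tetherin, which holds budding virus particles at the membrane; hg19, chromosome 19, 17513755 to 17516384) had the second highest ratio of all members. It stood at 4.26 in the parental, 458 in the resistant and 59.4, 86.05, 71.4 and 88.4 in the sorted libraries, a resistant value 107-fold the parental one and a log2 difference of 2.59 from the sorted mean, the largest of the 50. RSAD2 (viperin, which makes a chain-ending nucleotide) and CMPK2, a nucleotide kinase of mitochondria, are neighbours on chromosome 2. RSAD2 stood at 1.02 in the parental, 27.2 in the resistant and 12.2, 23.1, 14.6 and 20.4 in the sorted libraries. CMPK2 was above its parental level of 1.87 in every other library, with 23.6 in resistant cells, and the resistant value lay within the range of the sorted ones, 19.4, 28.5, 18.9 and 24.8.

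ISG15 is a ubiquitin-like protein that is attached to other proteins, and ISG15, its enzymes and related ubiquitin and ADP-ribose enzymes formed the largest role, with 12 members. Of these, 11 passed the 2-fold mark between resistant and parental cells (median log2 difference 2.73). ISG15 (hg19, chromosome 1, 948847 to 949919) stood at 42.03 in the parental, 459 in the resistant and 478, 630.2, 444 and 569.6 in the sorted libraries. Its resistant value was lower than 3 of the 4 sorted ones, and both positive libraries were above all the other libraries. UBE2L6, the enzyme that hands ISG15 on, stood at 24.5 in the parental, 192 in the resistant and 80.3, 95.8, 80.6 and 92.3 in the sorted libraries, with the resistant library highest. HERC5, the ligase that attaches ISG15 in human cells, was the member that stood lowest in resistant cells, at 0.911 in the parental, 2.04 in the resistant and 1.91, 3.93, 2.54 and 3.74 in the sorted libraries. It missed the 2-fold mark on the log2(FPKM + 1) scale with 0.67, while its plain FPKM ratio was 2.24. Its relative HERC6 stood at 2.19 in the parental, 30.5 in the resistant and 17.7, 23.99, 16.2 and 22.1 in the sorted libraries. USP18, which removes ISG15 and damps the receptor, stood at 2.43 in the parental, 69.4 in the resistant and 27.01, 30.2, 22.3 and 27.5 in the sorted libraries. Its value is uncertain because 22.98% of its runs of 50 bases also occur in transcripts of USP41.

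Among the ubiquitin ligases of this role, TRIM22 stood at 0.409 in the parental, 22.3 in the resistant and 3.40, 4.48, 4.32 and 5.65 in the sorted libraries, the lowest parental value of all members. Of its runs of 50 bases, 15.3% also occur in transcripts of other genes, most of them in OR56B1, so its level is uncertain. TRIM21, a receptor for antibodies inside cells, stood at 2.74 in parental, 24.4 in resistant and 5.43 to 6.46 in sorted cells. Both had resistant values more than 3-fold their highest sorted value. RNF213, a very large ligase, stood at 6.73 in the parental, 19.6 in the resistant and 12.9, 15.4, 14.5 and 16.9 in the sorted libraries, one of the smaller log2 differences between resistant and parental cells (1.42). PARP9 and its partner DTX3L are neighbours on chromosome 3 with PARP14. PARP14 stood at 12.1 in the parental, 54.03 in the resistant and 28.3, 32.98, 32.1 and 36.6 in the sorted libraries, and PARP12, another ADP-ribosyl transferase, at 9.37 in the parental, 34.6 in the resistant and 17.7, 19.8, 15.5 and 17.8 in the sorted libraries. PARP9 stood at 11.7 in parental, 81.5 in resistant and 39.8 to 44.6 in sorted cells, and DTX3L at 14.8, 49.7 and 34.2 to 39.4. Each of these 4 was highest in the resistant library, with log2 differences from the parental one of 1.68 to 2.70.

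The interferon-induced GTPases block viral particles or damage the compartments of intracellular microbes. MX1 (MxA, which acts on influenza virus) stood at 2.61 in the parental, 88.4 in the resistant and 47.8, 55.2, 47.3 and 49.9 in the sorted libraries. MX2 (MxB, which acts on HIV) stood at 7.53 in the parental, 25.8 in the resistant and 13.97, 15.7, 17.2 and 16.9 in the sorted libraries. Parental cells thus held more MX2 than MX1 and all 5 other libraries held more MX1. GBP3 stood at 4.65 in the parental, 16.7 in the resistant and 8.76, 10.9, 8.85 and 10.6 in the sorted libraries. GBP2 stood at 1.13 in the parental, 9.56 in the resistant and 2.64, 2.55, 3.69 and 3.05 in the sorted libraries, with its negative and positive libraries overlapping and the positive mean the lower one. GBP1, more a target of interferon gamma, stood at 0.483 in the parental, 21.4 in the resistant and 3.38, 5.05, 3.57 and 5.37 in the sorted libraries. Of the runs of 50 bases in GBP1 transcripts, 13.2% occur in another gene, most of them in the pseudogene GBP1P1, so GBP1 carries some doubt.

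The small induced proteins included the members of the largest ratios. IFI27, a small hydrophobic protein of mitochondria (hg19, chromosome 14, 94577079 to 94583033), stood at 21.2 in the parental, 2841 in the resistant and 1361, 1424, 1352 and 1453 in the sorted libraries. Its 4 sorted libraries lay within a narrow range, 134-fold separated the resistant from the parental value, and the log2 difference between sorted and parental cells was 5.97, the largest of all members. IFI6, of the same gene family and resident in the endoplasmic reticulum, stood at 17.9 in the parental, 853 in the resistant and 320.03, 419, 379 and 448 in the sorted libraries. IFI44L stood at 2.30 in the parental, 29.1 in the resistant and 19.9, 22.9, 23.2 and 26.4 in the sorted libraries, and its neighbour IFI44 at 10.7 in parental, 121 in resistant and 46.3 to 57.9 in sorted cells. XAF1, which counters the apoptosis inhibitor XIAP, stood at 5.92 in the parental, 40.6 in the resistant and 21.4, 25.8, 31.04 and 34.9 in the sorted libraries, and its 0610 libraries were both above its 0603 libraries. IFI35 stood at 7.79 in parental, 53.3 in resistant and 23.2 to 26.4 in sorted cells. EPSTI1 stood at 2.13, 23.99 and 13.6 to 17.9. All 7 of this role passed the 2-fold mark against parental cells in both the resistant library and the sorted mean.

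The remaining role, nuclear, scaffold and secreted proteins, held LGALS3BP and ISG20, which missed the 2-fold mark in both comparisons with parental cells. LGALS3BP, a secreted glycoprotein that binds galectins (hg19, chromosome 17, 76967335 to 76976061), stood at 391 in the parental, 539 in the resistant and 579, 568, 599 and 588 in the sorted libraries. It was abundant in every library, and its log2 difference of 0.46 was the smallest between resistant and parental cells. ISG20, an RNA exonuclease, stood at 12.1 in the parental, 17.8 in the resistant and 12.6, 19.03, 17.97 and 22.3 in the sorted libraries, with the resistant value inside the sorted range. PLSCR1, a phospholipid scramblase, stood at 20.2 in the parental, 107 in the resistant and 75.2, 78.6, 79.2 and 80.1 in the sorted libraries. SP100, a nuclear body protein, stood at 18.2 in the parental, 71.2 in the resistant and 39.9, 44.6, 43.9 and 47.0 in the sorted libraries, and SP110, its neighbour on chromosome 2, at 2.53 in the parental, 36.3 in the resistant and 15.5, 18.8, 12.9 and 16.1 in the sorted libraries. The last 3 were lowest in parental and highest in resistant cells. SAMD9 and SAMD9L, which restrict poxviruses, are neighbours on chromosome 7. SAMD9 stood at 9.58 in parental, 71.7 in resistant and 31.6 to 47.6 in sorted cells, and SAMD9L at 2.83, 19.1 and 7.56 to 11.1.

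Where the resistant library stood among the cells of the parental line depended on the reference. Against the sorted mean, 22 members passed the 2-fold mark upwards and 0 downwards, as did 8.18% and 4.89% of all 12157 genes. The resistant value exceeded all 4 sorted libraries for 44 members (45.4% of all genes), lay within their range for CMPK2, HERC5, ISG15 and ISG20, and lay below it for DDX60 and LGALS3BP. The members with the largest differences were BST2 (2.59), TRIM22 (2.11), GBP1 (2.08), IFITM2 (1.95) and IFIT2 (1.87). For the 47 members past the 2-fold mark between resistant and parental cells, the sorted mean lay at a median of 65.9% of the way from the parental to the resistant log2 value. That place ranged from 18.6% for IFITM2 to 125% for DDX60, and it was over 100% for DDX60 and ISG15.

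The sorted fractions came from the parental line, yet stood apart from the unsorted parental library. All 4 sorted libraries were above the parental value for 50 of 50 members, against 44.8% of all genes. Their mean was at least 2-fold higher for 42 members, against 5.39% of genes, and each of the 4 libraries passed that mark for 39 members, against 3.8%. The 8 members below the 2-fold mark were IFITM2 (0.45), ISG20 (0.50), LGALS3BP (0.58), PARP12 (0.84), GBP2 (0.89), TRIM21 (0.91), GBP3 (0.93) and MX2 (0.99). Sorting, culture and library preparation cannot be told apart in this difference.

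The members' order by level changed more against the parental library than between resistant and sorted cells. Spearman's rho of FPKM across the 50 members was 0.68 between parental and resistant cells, 0.75 between parental and sorted cells and 0.94 between resistant and sorted cells. These values describe genes within libraries, which are not replicates. The resistant and sorted libraries had IFI27 as the most abundant member, while the parental library had LGALS3BP, followed by IFITM3 and IFITM1.

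In the sorted fractions, most members were higher in TRA-1-81 positive than in negative cells by a small amount. The median log2 difference was 0.25, against 0.01 for all 11533 genes tested. Of the 50 members, 48 had a difference above 0, where the median of all genes also lay. None of the 50 passed an adjusted p of 0.05 in the fit without a term for the numbers (limma, two-sided, Benjamini-Hochberg), in which 0.00867% of all genes did. At an unadjusted p under 0.05 in that fit, 23 members were higher and 0 lower, against 3.65% and 1.25% of all genes. When the number was a block, 38 members passed by limma as higher and 0 as lower, against 7.97% and 4.9% of all genes. The labels do not say what the numbers mark, so both fits are given. The comparison of the numbers with each other, given below, keeps the fraction as a term. Its counts therefore belong beside the 38. Both positive libraries were above both negative ones for 39 members, against 18.6% of all genes, and below them for 0, against 12%. The fractions overlapped for the other 11: EIF2AK2, IFIT5, IFITM1, IFITM2, TRIM21, MX2, GBP2, XAF1, IFI44L, LGALS3BP and PLSCR1.

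OASL had the largest difference, with an FPKM of 34.3 ± 6.12 in positive and 16.9 ± 0.976 in negative cells (mean and SD of 2 libraries each) and a log2 difference of 0.97 ± 0.14 (SE; limma adjusted p = 0.487). It was 1.09 within 0603 and 0.85 within 0610. RSAD2 followed, at 21.7 ± 1.93 in positive and 13.4 ± 1.68 in negative cells, with 0.66 ± 0.12 (limma adjusted p = 0.504) and a difference of 0.87 within 0603 and 0.46 within 0610. IFIT2 had 24.8 ± 1.55 in positive and 15.9 ± 0.393 in negative cells, with 0.61 ± 0.08 (limma adjusted p = 0.487) and 0.65 within 0603 and 0.58 within 0610. For these 3 genes the gap between the fractions was larger than the gap between libraries of the same fraction. None passed the threshold in the fit without a term for the numbers. With the number as a block, their limma adjusted p were 4.4e-06 (OASL), 0.0004 (RSAD2) and 1.3e-05 (IFIT2). HERC5 (0.59 ± 0.12), SAMD9 (0.49 ± 0.08), DDX60 (0.48 ± 0.11), GBP1 (0.47 ± 0.08), IFIT3 (0.45 ± 0.12), CMPK2 (0.45 ± 0.09) and SAMD9L (0.45 ± 0.07) came next.

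At the other end, GBP2 had 2.80 ± 0.354 in positive and 3.16 ± 0.740 in negative cells, a log2 difference of -0.12 ± 0.15 (SE; limma adjusted p = 1). LGALS3BP had 578 ± 13.7 in positive and 589 ± 13.7 in negative cells, with -0.03 ± 0.06. IFITM1 had 311 ± 18.5 in positive and 302 ± 3.11 in negative cells, with 0.04 ± 0.07. The difference of IFI27, the member that separated resistant from parental cells the most, was 0.08 ± 0.06, and that of ISG15 was 0.38 ± 0.08. By role, the median differences were 0.37 for the IFIT family, 0.36 for the RNA sensors and 0.28 for the nuclear, scaffold and secreted members. They were 0.23 for the double-stranded RNA effectors, 0.22 for the ISG15 role, 0.21 for the small induced proteins and 0.14 for the GTPases. The entry, budding and membrane factors had a median of 0.24, which lay near none of them. IFITM1, IFITM3 and IFITM2 stood at 0.04, 0.06 and 0.07, and BST2, CMPK2 and RSAD2 at 0.42, 0.45 and 0.66.

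Taken within each number, 45 members were higher in positive cells in both 0603 and 0610, against 38.4% of all genes, and 2 were lower in both (GBP2 and LGALS3BP), against 30.5%. IFIT5, IFITM1 and MX2 went in opposite directions. The median member difference was 0.28 within 0603 and 0.22 within 0610, and it was the larger within 0603 for 39 members. Across the 50 members the differences within the 2 numbers correlated at a Pearson's r of 0.89 and a Spearman's rho of 0.89, and across all 11533 genes at 0.42 and 0.54. These pairs share no library, but genes are not independent points, so the values are a description.

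**Figure D4:**
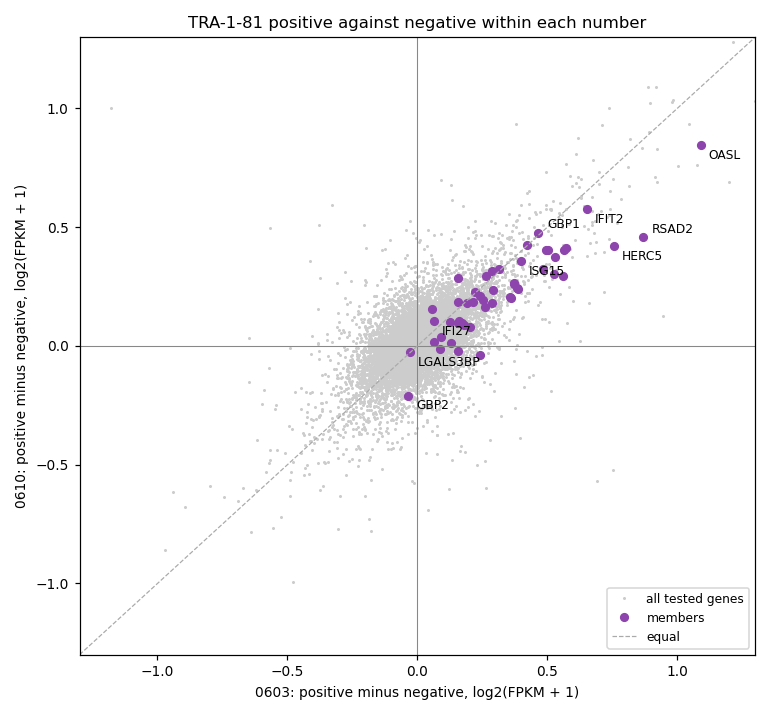
Positive minus negative log2(FPKM + 1) within 0603 (x axis) and within 0610 (y axis), with 1 point per gene, members in purple and all tested genes in grey (9 genes lie outside the axes). Of the members, 45 lie in the upper right corner, above 0 on both axes, led by OASL, and GBP2 and LGALS3BP lie in the lower left.

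The 2 numbers also differed from each other. Of the members, 14 were higher and 9 lower in 0610 than in 0603 (limma with the fraction as a term, adjusted p under 0.05), and 22.4% and 18.8% of all genes were. The members' share of calls was thus near that of all genes, and their median difference was 0.00. XAF1 was higher in 0610 by the most, 0.47 ± 0.04 (SE, n = 4 libraries, limma adjusted p = 1.71e-05). ISG20 (0.35 ± 0.06, adjusted p = 0.00103 by limma) and GBP2 (0.28 ± 0.07, adjusted p = 0.00888 by limma) followed. OASL (-0.23 ± 0.05), SP110 (-0.23 ± 0.04) and IFIT3 (-0.22 ± 0.04) were the lowest, with limma adjusted p of 0.00632, 0.00159 and 0.0012. At an unadjusted p under 0.05 by limma, 16 were higher and 12 lower, against 26.7% and 23.2% of all genes. Within both fractions 20 members were higher in 0610 and 19 lower, against 42.4% and 38.3%. Both 0610 libraries were above both 0603 ones for 6 members, against 32.1% of all genes, and below them for 4, against 28.3%. No member passed when the fraction was left out of the fit (9.08% of all genes did). With no filter on low values 5 passed, against 23. The share of all genes was not counted there, so it is not known whether the fall concerns the members more than other genes.

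Several members are neighbours in the genome. In hg19, 28 of the 50 lie in 11 groups in which each gene is within 200 kb of the next, and the other 22 lie alone. The median log2 difference between resistant and parental cells was 3.21 for the grouped members and 2.84 for the others, and for positive against negative cells both medians were 0.25. Within a group, values could be alike or far apart. OAS1, OAS3 and OAS2 (chromosome 12, 113344739 to 113449528) spanned 4.08 to 4.56 for resistant against parental cells. MX2 and MX1 (chromosome 21, 42733950 to 42831141) stood at 1.65 and 4.63, and HERC6 and HERC5 (chromosome 4, 89299891 to 89427319) at 3.30 and 0.67.

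The interferon pathway itself was described from 7 lists of other genes, with 52 symbols described. Of the 40 measured in resistant and parental cells, 17 passed the 2-fold mark upwards and 1 downwards (13.5% and 6.9% of all genes), with a median log2 difference of 0.75. By list, those past it upwards were 5 of 8 genes of nucleic acid sensing, 3 of 5 of the kinases with STAT2 and IRF9, 3 of 6 receptors, 2 of 5 interferon regulatory factors, 2 of 3 ligands, 1 of 6 feedback inhibitors (SOCS1) and 1 of 7 nucleases and RNA editors (SAMHD1). Of the 40 measured between sorted and parental cells, 8 passed it upwards and 0 downwards (5.39% and 2.08% of all genes). In positive against negative cells, 0 of 39 passed the limma test without a term for the numbers, in either direction. Of all genes 0.00867% passed it, so the 0 says little about the pathway genes. At an unadjusted p under 0.05 by that test, 4 were higher and 0 lower (3.65% and 1.25% of all genes). In 0610 against 0603, 10 were higher and 5 lower by limma (adjusted p under 0.05), against 22.4% and 18.8% of all genes.

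Of the interferon genes, 3 reached an FPKM of 1 in any library. IFNB1 (interferon beta), an intronless gene, was listed at 0 in the parental library, and reached 1.22 in the resistant one and 0.0324, 0.196, 0 and 0.118 in the sorted libraries. By a rough estimate from short olfactory receptor genes, the resistant value corresponds to about 21.2 fragments, and 3 fragments would give an FPKM of 0.116 to 0.209 on this gene. The resistant library and the positive library of 0603 were above their own floor, and the other 4 libraries were below theirs. IFNL1, an interferon lambda, stood at 0.105 in the parental, 1.352 in the resistant and 0.232, 0.554, 0.274 and 1.10 in the sorted libraries. IFNE, an epithelial interferon that is present without infection, went the other way, at 6.94 in the parental, 2.88 in the resistant and 4.32, 4.54, 5.27 and 7.0 in the sorted libraries. IFNA1, IFNA2, IFNA5, IFNA8, IFNA13, IFNK, IFNW1 and IFNG were each at most 0.144 in any library, and IFNL2 and IFNL3 at most 0.454 and 0.202.

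All 6 receptor chains were expressed. The type I chains stood at 11.5 in the parental, 12.7 in the resistant and 18.6, 18.8, 20.7 and 20.5 in the sorted libraries for IFNAR1. For IFNAR2 the values were 4.13 in the parental, 11.5 in the resistant and 8.63, 9.43, 7.80 and 8.68 in the sorted libraries. IFNAR1 was higher in the sorted than in either unsorted library, whereas IFNAR2 was highest in the resistant one. IFNGR1, the binding chain for interferon gamma, stood at 16.01 in the parental, 77.6 in the resistant and 26.5, 26.4, 28.2 and 28.6 in the sorted libraries, and its partner IFNGR2 at 36.1 in the parental, 47.8 in the resistant and 36.9, 34.3, 45.1 and 43.1 in the sorted libraries. IFNLR1, the chain for interferon lambda, stood at 1.34 in the parental, 4.42 in the resistant and 2.07, 2.48, 1.97 and 2.46 in the sorted libraries, and IL10RB, its partner, at 17.8 in the parental, 26.3 in the resistant and 21.7, 23.9, 24.8 and 26.5 in the sorted libraries. IFNGR1 had the largest log2 difference of the receptors between resistant and parental cells, 2.21.

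STAT2 and IRF9, of the complex that binds the ISRE, lay in the same order of libraries as most members. STAT2 stood at 8.89 in the parental, 27.9 in the resistant and 10.8, 13.3, 14.2 and 14.96 in the sorted libraries. IRF9 stood at 20.1 in the parental, 76.5 in the resistant and 49.8, 54.6, 48.5 and 58.9 in the sorted libraries. Both were lowest in parental and highest in resistant cells, by log2 differences of 1.54 and 1.88. Among the other pathway genes, IFI16, a DNA sensor, stood at 1.95 in the parental, 102 in the resistant and 14.9, 22.9, 21.2 and 28.4 in the sorted libraries, and TMEM173 (STING, the adaptor of cytosolic DNA sensing) at 7.43 in the parental, 67.8 in the resistant and 21.1, 27.6, 20.7 and 25.8 in the sorted libraries. Both lay in the order of 44 of the 50 members, parental below sorted below resistant. PTPN6, a phosphatase, stood at 19.6 in the parental, 14.5 in the resistant and 17.4, 18.3, 16.8 and 18.6 in the sorted libraries, and TBK1, the kinase below the sensors, at 11.6 in the parental, 9.70 in the resistant and 11.7, 12.3, 11.9 and 12.8 in the sorted libraries. These were the pathway genes, outside the ligands and receptors, with the lowest resistant to parental differences, -0.41 and -0.23.

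**Figure D5:**
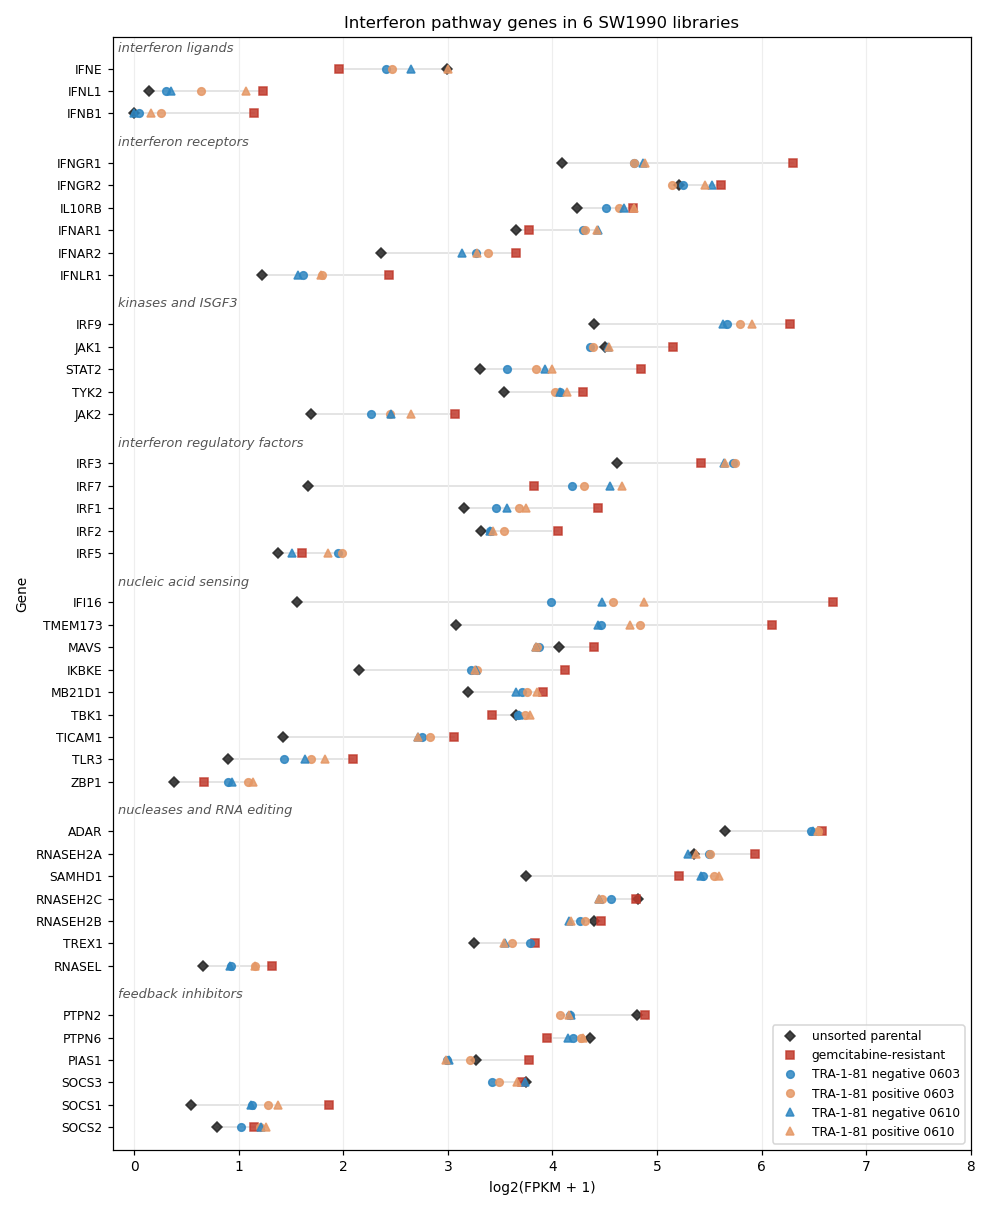
Levels of pathway genes that reached an FPKM of 1 in any library, as log2(FPKM + 1) with 1 point per library and no error bars, grouped by step. STAT2, IRF9, IFI16 and TMEM173 run from parental through sorted to resistant cells, while IFNE is lowest in the resistant library.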

How the data were processed

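The deposited table gives 1 value per gene and library without naming its unit. It is read as the authors' FPKM, since Cufflinks 2.1.1 appears in the submitters' processing notes, with TopHat2 2.0.11, CASAVA 1.8.2 and hg19. How each tool was run is not given in the sources used here, and depth is unknown beyond a rough estimate. The deposited FPKM could not be turned back into counts, so no count model was used. Of 19312 rows, the row of highest mean was kept for the 191 symbols on several rows, leaving 19077 genes. Starts in hg19 are 1 above those listed, which count from 0 judging by the reading-frame lengths of 315 of 346 short olfactory receptor genes. On short olfactory receptor genes, 3 fragments on 1 kb correspond to an FPKM of about 0.0974 to 0.175.

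Values were analysed as log2(FPKM + 1). Differences between sorted libraries were tested by limma 3.58.1 in R 4.3.3 (mean trend, two-sided, Benjamini-Hochberg over all genes, threshold 0.05) over the 11533 genes whose FPKM reached 1 in 2 or more of the 4 libraries. The comparison of fractions had no covariate, and that of 0610 with 0603 kept the fraction as a term. Differences that involve the single parental or resistant library have no test, and genes with an FPKM of at least 1 on either side were counted past 2-fold. The fits were tested on simulated data. 1 pathway gene and 1 epithelial marker of the lists are not reported here. The members, lists and rules for naming genes were chosen with earlier results of these data known. Values in every library are given for the 2 most abundant members of each role, for the top 5 and bottom 5 members by difference between resistant and parental cells, for the 3 at either end of the comparisons of fractions and of numbers, and for every member past a test threshold. Shared runs of bases were counted on the transcripts of GENCODE release 29, and promoter windows came from RefSeq (GRCh38.p14). Alternatives changed the added constant, the filter, the scaling, repeated rows, the covariate and the libraries used.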

Additional observations from a re-analysis of the deposited data

How the results depend on the processing

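The numbers 0603 and 0610 are shared by the fractions, and the deviations of same-numbered libraries from their fraction means correlated at 0.65 across 11533 genes, with 2 pairs and no label that says what the numbers mark. With the number as a replicate block, 38 of 50 members passed as higher in positive cells and 0 as lower, against 7.97% and 4.9% of all genes, where 0 passed without it. The count was also 0 under each alternative without the block, which does not show stability since it starts at 0. Member medians were 0.20 to 0.29 when 1 library was left out. For OASL the limma adjusted p ranged from 0.133 to 0.684 over the alternatives without the block. For 0610 against 0603, 23 members passed as reported (41.2% of all genes) and 0 with no covariate (9.08% of all genes). With no filter on low values 5 passed, and the share of all genes was not counted for that setting. Leaving out a library there leaves no residual degrees of freedom, so only the median was recomputed (-0.05 to 0.05).

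The median log2 difference of the members between resistant and parental cells was 3.21 with an added constant of 0.1, 2.30 with 5 and 2.81 with quantile normalization, against 2.998. For sorted against parental cells it was 2.24 with 0.1 and 1.54 with 5, against 1.92. Counts of members at least 2-fold higher stayed within 1.5 times in all 3 comparisons. With 1 library left out, the positive minus negative difference changed sign for MX2 (-0.075 to 0.21), XAF1 (-0.046 to 0.47), IFITM1 (-0.023 to 0.10), IFITM2 (-0.0052 to 0.15) and GBP2 (-0.30 to 0.061). For 0610 against 0603, values near 0 changed sign for SAMD9L (-0.00054 with a constant of 5, -0.038 with quantile normalization), IFI35 (-0.0094) and IFI44 (0.015), the last 2 with quantile normalization. The cause was not tested for any of these changes.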

Other observations

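The comparison of resistant with parental cells and that of positive with negative cells share no library. Across the 50 members, the 2 log2 differences correlated at a Pearson's r of 0.13 and a Spearman's rho of 0.25, and across the 11407 genes measured in both at 0.40 and 0.32. IFI27 and BST2, the members with the largest differences between resistant and parental cells (6.998 and 6.45), stood at 0.08 and 0.42 between the fractions. OASL and HERC5 stood at 0.97 and 0.59 between the fractions and at 3.36 and 0.67 between resistant and parental cells. These are descriptions across genes, which are not independent replicates, and no explanation was tested.

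IRF7, a transcription factor that amplifies interferon production and that was picked after its values were seen, stood at 2.17 in the parental, 13.2 in the resistant and 17.2, 18.8, 22.4 and 24.3 in the sorted libraries. It was one of the pathway genes with a resistant value below all 4 sorted libraries, as were DDX60 and LGALS3BP among the members.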
